A study of Mus musculus with 8 samples.

Results

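The Cyp2c genes encode a family of cytochrome P450 enzymes, and their transcripts were followed here on liver arrays from mice on 4 diet histories. The family was taken as 10 named genes, of 27218 names on the array (Cyp2c29, Cyp2c37, Cyp2c38, Cyp2c39, Cyp2c40, Cyp2c44, Cyp2c50, Cyp2c54, Cyp2c55 and Cyp2c70), and every non-control probe carrying such a name was kept on its own. This gave 12 probes for 9 of the genes, of 41174 gene probes on the array, and all 12 were among the 26224 probes tested. A probe was tested when some diet group had it well above background on each of its 2 arrays, and 11 of the 12 were so on all 8 arrays. No probe carried the name Cyp2c50, but a Cyp2c37 probe lists Cyp2c50 accessions as well, so that gene was not analysed here on its own.

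The livers came from male C57Bl/6J mice aged 14 weeks that were fasted for 4 h, with 2 arrays per group. In the VAD_VAD group a low-fat diet (12% of energy as fat) without vitamin A was given to the dams and again to the offspring after weaning. In the LF_HF group the dams received the low-fat, vitamin A sufficient diet and the weaned offspring a high-fat diet with 60% of energy as fat. In the BD_HF group the dams stayed on a standard breeder diet and the offspring received the same high-fat diet. In the LF_LF group the low-fat, vitamin A sufficient diet was given at both stages. Dams ate breeder diet until a defined diet was given, and for the LF_HF group the labels place that change at embryonic day 10.5. The study set VAD_VAD against LF_LF, LF_HF against LF_LF, and BD_HF against LF_HF; BD_HF against LF_LF is added here and differs in maternal as well as post-weaning diet. The labels number the samples but do not say that each is a separate animal, so a p-value here covers the spread among samples, which may be technical.

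Cytochrome P450 enzymes of the Cyp2c family sit in the endoplasmic reticulum of hepatocytes and use electrons from P450 oxidoreductase to oxidise drugs, steroids and fatty acids. Many of them turn arachidonic acid into epoxides or hydroxylated products, and single members have taken on other substrates, such as retinoic acid for mouse Cyp2c39 and bile acids for mouse Cyp2c70. In mouse liver several members are induced through the nuclear receptors CAR and PXR, which respond to foreign compounds. The genes lie on mouse chromosome 19, most of them in a cluster, and arose by duplication, so that several transcripts are close in sequence. The Cyp2c44 probe lies apart from the others, at mm9 chr19:44079535-44079594, where the others lie between 39116674 and 40228028.

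LF_HF replicate 1 stood apart from the other 7 arrays. Its 75th percentile of processed signal was 496.1 units against 195.5 to 295.7 elsewhere, 82.2% of its probes were well above background against 56.5% to 64.2%, and 2764 of its spots were marked as outliers against 66 to 365. The correlation between the replicates over tested probes was 0.903 in LF_HF, against 0.975 in VAD_VAD, 0.986 in BD_HF and 0.991 in LF_LF. Each family result between 2 groups that its removal moves past or back over the threshold is therefore given with and without this array. The comparison of all 4 groups at once is given by probe with all arrays only. In the comparisons of VAD_VAD and BD_HF with LF_LF the LF_HF arrays enter only through the shared estimate of spread, so leaving out either of them gives the same values. Of the 12 family probes, 0 had a spot marked as an outlier or saturated on any array.

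The probe sequences were compared with one another, not with transcripts. In the first 3 below, for probes that cross a splice junction at homologous places, capitals in the Cyp2c40 and Cyp2c38 probes mark bases identical to the Cyp2c54 probe, and capitals in the Cyp2c54 probe mark bases that both others share. The last 3, with no capitals, are further probes on which the results turn. All run 5′ to 3′ as the array files give them.
Cyp2c54 A_52_P154580: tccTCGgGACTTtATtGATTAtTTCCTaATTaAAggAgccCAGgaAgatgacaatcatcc
Cyp2c40 A_52_P200121: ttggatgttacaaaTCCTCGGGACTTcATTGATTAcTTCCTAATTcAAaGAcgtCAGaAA
Cyp2c38 A_51_P342206: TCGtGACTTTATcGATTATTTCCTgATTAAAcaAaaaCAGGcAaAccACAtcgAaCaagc
Cyp2c37 A_52_P625249: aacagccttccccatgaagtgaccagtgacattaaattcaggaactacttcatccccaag
Cyp2c39 A_51_P304109: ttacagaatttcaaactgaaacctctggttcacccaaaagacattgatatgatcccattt
Cyp2c29 A_51_P103706: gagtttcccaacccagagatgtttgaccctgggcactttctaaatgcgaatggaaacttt

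Where 2 probes cover homologous stretches, they can be aligned without gaps over at least 20 bases, and this held for 4 of the 66 pairs. The Cyp2c40 probe A_52_P200121 matched the Cyp2c54 probe at 38 of 46 bases (82.6%), and the Cyp2c38 probe A_51_P342206 matched it at 40 of 57 (70.2%). The same Cyp2c38 probe matched the Cyp2c40 probe at 30 of 43 bases (69.8%). In the last pair the Cyp2c39 probe A_51_P304109 matched the Cyp2c40 probe A_51_P502599 at 19 of 26 bases (73.1%). For 3 of the 12 probes the array files list accessions of more than 1 gene. These are A_52_P625249 (Cyp2c37 and Cyp2c50), A_52_P200121 (Cyp2c40 and Cyp2c68) and A_51_P502599 (Cyp2c40, Cyp2c67, Cyp2c68 and Cyp2c69), and the member behind their signal is uncertain. The gene that the files call Cyp2c44 has the symbol Cyp2c23 in the reference table.

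Cyp2c37 and Cyp2c54 were the members that differed most between the diets, with their lowest levels in LF_LF livers and their highest on the high-fat diet. Against LF_LF, 2 of the 12 probes were higher in VAD_VAD livers and 0 lower, beside 0.0572% of all tested probes called higher and 0.29% called lower (0.347% in either direction). In LF_HF livers 4 were higher and 1 was lower, beside 0.408% and 1.13% of all probes, or 1.54% in either direction. In BD_HF livers 4 were higher and 0 lower, beside 0.263% and 0.644% of all probes (0.908% in either direction). Called here means an adjusted p under 0.05 in limma, over all tested probes. The 3 comparisons share the LF_LF arrays.

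**Figure D1:**
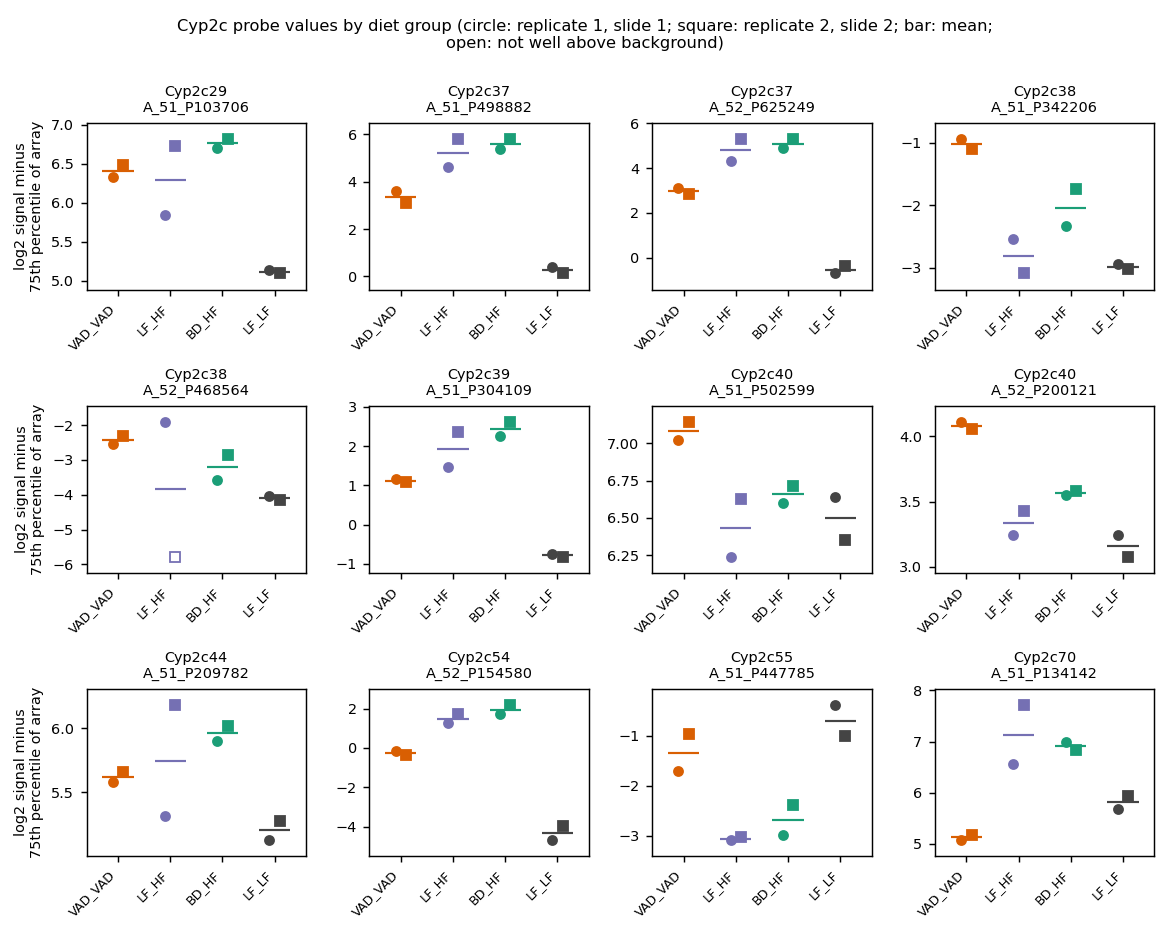
Level of each Cyp2c probe (log2 processed signal minus the 75th percentile of its array, vertical axis of each panel) on the 8 arrays, with the diet groups along the horizontal axis, circles for replicate 1, squares for replicate 2, a bar at the mean of each group, and an open symbol where the probe was not well above background. In the Cyp2c37, Cyp2c39 and Cyp2c54 panels both LF_LF arrays lie below all 6 others; in the Cyp2c55 panel the 4 high-fat arrays lie below the VAD_VAD and LF_LF arrays.

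Cyp2c54, an arachidonic acid epoxygenase, was read by 1 probe that spans a splice junction (A_52_P154580, mm9 chr19:40122119-40144700, minus strand). Levels are log2 values relative to the 75th percentile of the array throughout. Its levels were -0.16 and -0.36 in VAD_VAD, 1.25 and 1.75 in LF_HF and 1.72 and 2.18 in BD_HF livers, against -4.68 and -3.96 in LF_LF livers. Every array of the 3 other diets lay above both LF_LF arrays, and only LF_HF and BD_HF overlapped. Cyp2c54 was 16.7-fold higher in VAD_VAD than in LF_LF livers (log2 difference 4.06 ± 0.38, SE; adjusted p = 0.0195). It was 56.5-fold higher in LF_HF (5.82 ± 0.38; adjusted p = 0.00593) and 77.1-fold higher in BD_HF livers (6.27 ± 0.38; adjusted p = 0.00889). The LF_LF signals were low, at 11.4 and 18.9 units, although above background on both arrays, where the negative controls had median processed signals of 1.63 and 1.48 units. With another background correction (normexp) the log2 differences were smaller, down to 1.84, 3.52 and 3.76, and all 3 remained past the threshold. Within slide 1, which held every replicate 1, the log2 differences were 4.52 in VAD_VAD, 5.93 in LF_HF and 6.40 in BD_HF livers, and within slide 2 they were 3.61, 5.71 and 6.14. Without LF_HF replicate 1 the LF_HF difference was 6.07 (adjusted p = 0.00195).

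Cyp2c37, which hydroxylates arachidonic acid and is induced through CAR in mice, was read by 2 probes (A_52_P625249 at mm9 chr19:40076439-40076498 and A_51_P498882 at chr19:40086467-40086526, both plus strand). On A_52_P625249 its levels were 3.10 and 2.84 in VAD_VAD, 4.31 and 5.31 in LF_HF and 4.88 and 5.29 in BD_HF livers, against -0.70 and -0.36 in LF_LF livers. The LF_LF arrays were again the lowest and the VAD_VAD arrays came next, without overlap. This probe was 11.3-fold higher in VAD_VAD (log2 difference 3.50, adjusted p = 0.0292), 40.6-fold higher in LF_HF (5.34, adjusted p = 0.00593) and 49.1-fold higher in BD_HF livers (5.62, adjusted p = 0.00889). On A_51_P498882 the levels were 3.59 and 3.09 in VAD_VAD, 4.61 and 5.80 in LF_HF and 5.39 and 5.81 in BD_HF livers, against 0.40 and 0.13 in LF_LF livers. The groups stood in the same order on both probes. The second probe was 30.7-fold higher in LF_HF (adjusted p = 0.00795) and 40.3-fold higher in BD_HF livers (adjusted p = 0.0101), while its 8.40-fold difference in VAD_VAD livers missed the threshold (3.07 ± 0.46; adjusted p = 0.0577). It passed without either LF_HF array (adjusted p = 0.00423). Without LF_HF replicate 1 the LF_HF differences were 5.84 on A_52_P625249 (adjusted p = 0.00171) and 5.54 on A_51_P498882 (adjusted p = 0.00195).

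Cyp2c39, reported as a retinoic acid hydroxylase of mouse liver, followed the same order of groups at smaller differences (A_51_P304109, mm9 chr19:39642568-39642627, plus strand). Its levels were 1.15 and 1.09 in VAD_VAD, 1.47 and 2.37 in LF_HF and 2.26 and 2.61 in BD_HF livers, against -0.76 and -0.82 in LF_LF livers. The LF_LF arrays lay below every other array, and VAD_VAD lay between them and the high-fat groups. Cyp2c39 was 6.53-fold higher in LF_HF (log2 difference 2.71, adjusted p = 0.0263) and 9.35-fold higher in BD_HF livers (3.22, adjusted p = 0.0192). The difference in VAD_VAD livers was 1.91 ± 0.38 and did not pass (adjusted p = 0.119), but passed without either LF_HF array (adjusted p = 0.00908). Without LF_HF replicate 1 the LF_HF difference was 3.16 (adjusted p = 0.00331).

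Cyp2c29, an abundant mouse liver P450 and a standard target of CAR, was above LF_LF in all 3 other groups but passed in none (A_51_P103706, mm9 chr19:39403642-39403701, plus strand). Its levels were 6.33 and 6.48 in VAD_VAD, 5.85 and 6.72 in LF_HF and 6.70 and 6.82 in BD_HF livers, against 5.14 and 5.09 in LF_LF livers. No array of another group overlapped LF_LF, and the LF_HF arrays spanned the VAD_VAD values. The log2 differences were 1.29 in VAD_VAD (adjusted p = 0.289), 1.17 in LF_HF (adjusted p = 0.191) and 1.64 in BD_HF livers (adjusted p = 0.115). Without LF_HF replicate 1 they were 1.29, 1.61 and 1.64, with adjusted p values of 0.0260, 0.0159 and 0.00862. Without LF_HF replicate 2 the VAD_VAD and BD_HF differences passed with the same values, and that in LF_HF livers was 0.73 and did not (adjusted p = 0.0842). Cyp2c44, an epoxygenase, had levels of 5.58 and 5.66 in VAD_VAD, 5.32 and 6.18 in LF_HF and 5.90 and 6.02 in BD_HF livers, against 5.13 and 5.27 in LF_LF livers. Its groups lay close together, with log2 differences from LF_LF of 0.42 to 0.76 and adjusted p values of 0.488 to 0.760.

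Cyp2c38 and Cyp2c40 had their highest levels in VAD_VAD livers. Cyp2c38, an arachidonic acid epoxygenase, had levels on A_51_P342206 of -0.94 and -1.10 in VAD_VAD, -2.54 and -3.09 in LF_HF and -2.33 and -1.74 in BD_HF livers, against -2.94 and -3.02 in LF_LF livers. Both VAD_VAD arrays were above the 6 others, and the LF_HF arrays overlapped LF_LF. The difference between VAD_VAD and LF_LF was 1.97 ± 0.35 and did not pass (adjusted p = 0.0887); without either LF_HF array the adjusted p was 0.0133. On the other Cyp2c38 probe (A_52_P468564) the levels were -2.54 and -2.30 in VAD_VAD, -1.91 and -5.78 in LF_HF and -3.57 and -2.85 in BD_HF livers, against -4.03 and -4.14 in LF_LF livers. The LF_HF arrays disagreed, and the lower of the 2 was not above background. The LF_HF difference from LF_LF of 0.24 turned to -1.69 without LF_HF replicate 1 (adjusted p = 0.0356) and was 2.17 without replicate 2 (adjusted p = 0.00800), so its direction rested on which array was kept. The VAD_VAD difference of 1.67 (adjusted p = 0.692) passed without either LF_HF array (adjusted p = 0.0310).

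Cyp2c40, which hydroxylates arachidonic acid in mice, had levels on A_52_P200121 of 4.11 and 4.05 in VAD_VAD, 3.25 and 3.43 in LF_HF and 3.55 and 3.58 in BD_HF livers, against 3.24 and 3.08 in LF_LF livers. VAD_VAD stood 0.47 above the next highest array. On A_51_P502599 the levels were 7.02 and 7.14 in VAD_VAD, 6.24 and 6.63 in LF_HF and 6.60 and 6.71 in BD_HF livers, against 6.64 and 6.35 in LF_LF livers. The VAD_VAD arrays were the highest there as well, with a gap of 0.31. Differences between VAD_VAD and LF_LF were 0.92 (adjusted p = 0.330) and 0.58 (adjusted p = 0.611).

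Cyp2c70 was highest on the high-fat diet and Cyp2c55 lowest. Cyp2c70, which makes muricholic acids in the mouse, had levels of 5.08 and 5.18 in VAD_VAD, 6.55 and 7.71 in LF_HF and 6.99 and 6.82 in BD_HF livers, against 5.68 and 5.94 in LF_LF livers (A_51_P134142, mm9 chr19:40227969-40228028, minus strand). The VAD_VAD arrays were the lowest and the 4 high-fat arrays the highest, with LF_LF between them. The log2 differences were -0.68 in VAD_VAD (adjusted p = 0.675), 1.32 in LF_HF (adjusted p = 0.199) and 1.10 in BD_HF livers (adjusted p = 0.365). Without LF_HF replicate 1 the LF_HF difference was 1.90 and passed (adjusted p = 0.0115), as did that in BD_HF livers without either LF_HF array (adjusted p = 0.0371).

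Cyp2c55, a member induced through CAR and PXR in mice, was the only probe of the family called lower (A_51_P447785, mm9 chr19:39116674-39116733, plus strand). Its levels were -1.71 and -0.97 in VAD_VAD, -3.08 and -3.03 in LF_HF and -2.98 and -2.39 in BD_HF livers, against -0.40 and -1.005 in LF_LF livers. The 4 high-fat arrays were the lowest, and VAD_VAD overlapped LF_LF. Cyp2c55 fell by 2.36 ± 0.40 on the log2 scale in LF_HF livers (adjusted p = 0.0435), and by 2.33 without LF_HF replicate 1 (adjusted p = 0.0265). With the slide as a block the adjusted p was 0.0643, and under quantile scaling it was 0.142, which left 4 family probes higher and 0 lower. Over 10 alternative ways of processing that kept all arrays, Cyp2c55 passed in 5, with differences from -3.82 to -1.08. Within slide 1 the difference was -2.69 and within slide 2 it was -2.03. In BD_HF livers the difference was -1.98 (adjusted p = 0.0890; 0.0270 without either LF_HF array).

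**Figure D2:**
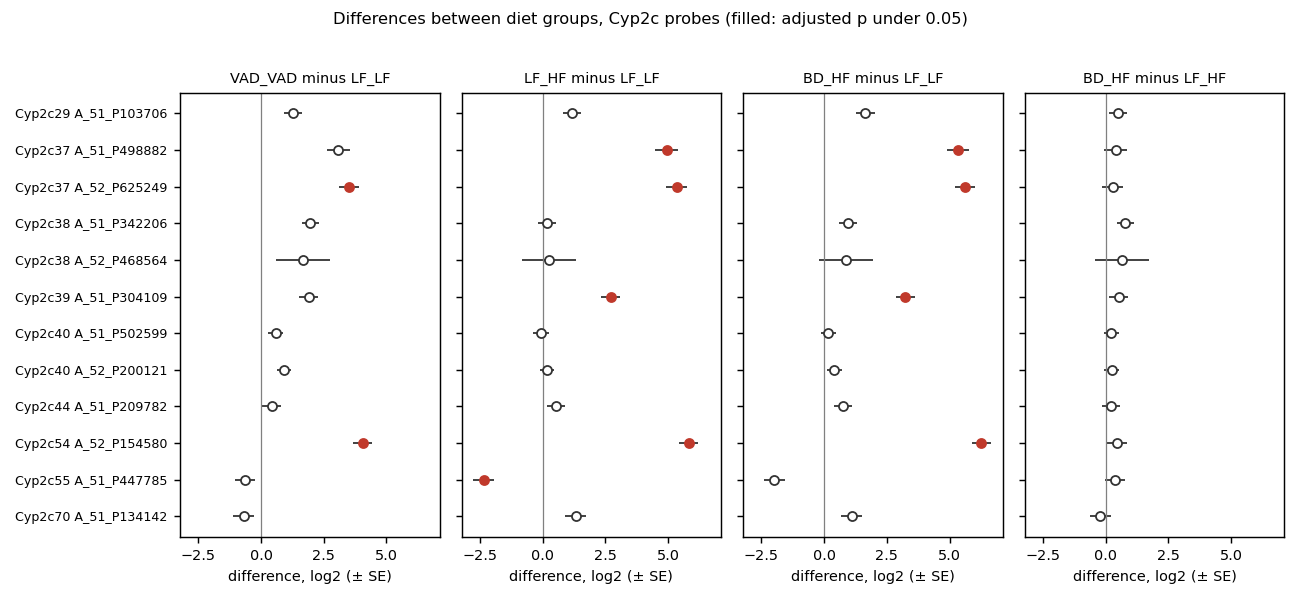
Difference of each Cyp2c probe from LF_LF (log2, horizontal axis; points are fitted differences and lines their standard errors) for VAD_VAD, LF_HF and BD_HF livers in 3 panels, and of BD_HF from LF_HF in the last, 2 arrays per group, with filled symbols where the adjusted p was under 0.05. The Cyp2c54 and Cyp2c37 probes lie farthest to the right in the first 3 panels, Cyp2c55 lies farthest to the left in both high-fat panels, and no symbol is filled in the last.

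Over the whole family, 10 of 12 probes were above LF_LF in VAD_VAD, 10 in LF_HF and 11 in BD_HF livers. With quantile scaling both Cyp2c38 probes lay below LF_LF in LF_HF livers, at -1.19 and -0.73. The median log2 differences were 1.48, 0.86 and 1.02, where all tested probes had medians of 0.09, 0.05 and 0.12. The 2 groups did not overlap for 11 probes in VAD_VAD against LF_LF, for 9 in LF_HF against LF_LF and for 11 in BD_HF against LF_LF. Over all probes with a value on these arrays the share was 57.4%, 42.8% and 58.9%. An unadjusted p under 0.05 was reached by 7, 7 and 8 of the 12, and by 9.72%, 16.1% and 11.7% of all tested probes. When all 4 groups were compared at once, 4 probes passed (Cyp2c54, both Cyp2c37 probes and Cyp2c39; adjusted p 0.0162 to 0.0444), beside 0.603% of all tested probes.

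These counts rested on few arrays. Leaving out any 1 VAD_VAD, BD_HF or LF_LF array ended all calls in VAD_VAD against LF_LF, and leaving out either LF_HF array raised them to 7, beside 4.56% of all tested probes. For LF_HF against LF_LF the count was 8 without LF_HF replicate 1 (6 higher and 2 lower, beside 9.41% of all tested probes) and 6 without LF_HF replicate 2, where 26.8% of all tested probes were called. The count fell without any 1 VAD_VAD or BD_HF array, and no call was left without either LF_LF array. Calls over all tested probes fell in the same way. For BD_HF against LF_LF the count rose without either LF_HF array and fell without either VAD_VAD array. No call was left without any 1 BD_HF or LF_LF array. Calls over all tested probes moved in the same way.

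Between the 2 high-fat groups, which differ in maternal diet, 0 of the 12 probes passed in limma, and 0.00381% of all tested probes did. Differences of BD_HF from LF_HF ranged from -0.22 for Cyp2c70 to 0.78 for Cyp2c38 (A_51_P342206), with standard errors of 0.28 to 1.07 and adjusted p values of 0.764 to 0.842. No family probe had an unadjusted p under 0.05, against 5.66% of all tested probes. The groups did not overlap for 3 probes (Cyp2c55, Cyp2c38 A_51_P342206 and Cyp2c40 A_52_P200121), beside 27.6% of all probes. Without LF_HF replicate 2, 1 probe passed, the Cyp2c38 probe A_52_P468564 at -1.30 (adjusted p = 0.0482), beside 21.2% of all tested probes.

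Within the family, Cyp2c37, Cyp2c39 and Cyp2c54 varied together over the 8 arrays. As a description of 4 groups of 2 arrays, which share the slides and the array scaling, the Pearson correlation was 0.99 to 1.00 between Cyp2c54 and the 2 Cyp2c37 probes, and 0.98 to 0.99 between Cyp2c39 and those 3. Cyp2c29 correlated with the same 4 probes at 0.90 to 0.94. Cyp2c55 ran the other way, at -0.88 against Cyp2c54 and both Cyp2c37 probes. Cyp2c38 (A_51_P342206) went with the Cyp2c40 probes at 0.80 and 0.93, and the 2 probes of Cyp2c38 correlated at 0.69.

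**Figure D3:**
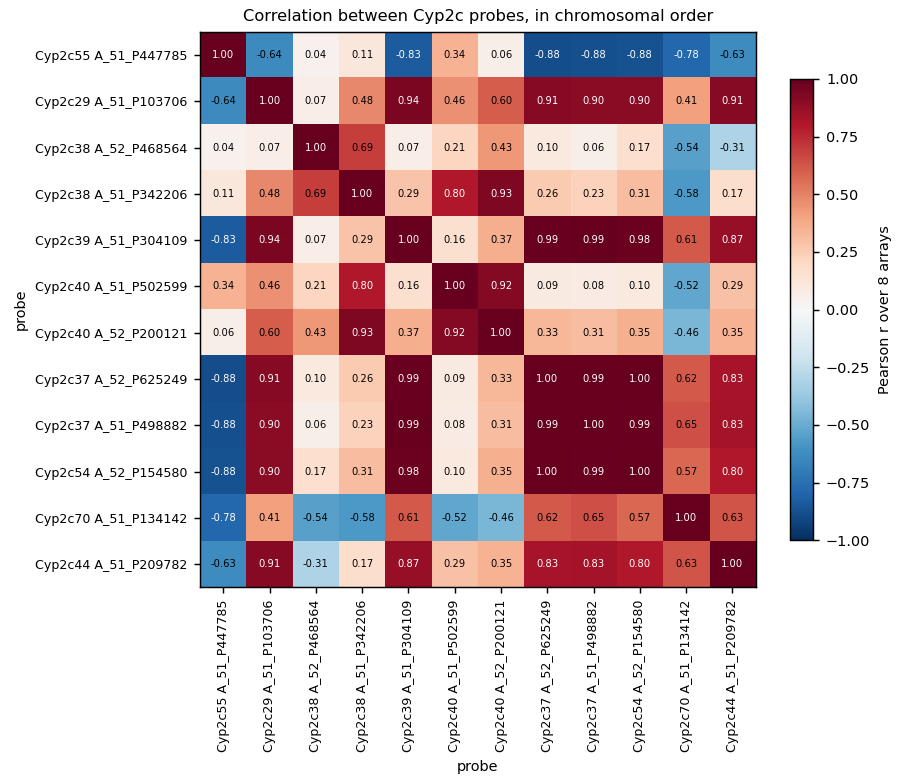
Pearson correlation of log2 levels between each pair of the 12 Cyp2c probes over the 8 arrays (colour, from -1 to 1; rows and columns are the probes). The Cyp2c37, Cyp2c39, Cyp2c54 and Cyp2c29 probes form a positive block and Cyp2c55 is negative against each of them, from -0.88 to -0.64.

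Promoter sequences were available for 8 of the 10 genes, as 9 entries of 300 bases that lie mostly upstream of the transcript start (RefSeq, GRCm38.p6). The entries for Cyp2c37, Cyp2c50 and Cyp2c39, which belong to the set highest on the high-fat diet or share its probe, are printed with that of Cyp2c55, which was lowest there. Capitals mark matches to CAAAGTCNA, letters that resemble a binding site of the liver nuclear receptor HNF4 and that were chosen after the sequences were read. AGGTCA, a nuclear receptor recognition element, was searched as well and is absent from these 4. Each entry runs in the direction of its gene.
Cyp2c37 chr19:39992174-39992473 plus strand: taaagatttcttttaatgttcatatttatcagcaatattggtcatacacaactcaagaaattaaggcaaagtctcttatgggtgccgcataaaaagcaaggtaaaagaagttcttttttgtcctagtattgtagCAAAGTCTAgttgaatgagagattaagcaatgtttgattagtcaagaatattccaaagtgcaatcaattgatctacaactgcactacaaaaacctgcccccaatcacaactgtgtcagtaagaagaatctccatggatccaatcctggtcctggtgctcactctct
Cyp2c50 chr19:40089429-40089728 plus strand: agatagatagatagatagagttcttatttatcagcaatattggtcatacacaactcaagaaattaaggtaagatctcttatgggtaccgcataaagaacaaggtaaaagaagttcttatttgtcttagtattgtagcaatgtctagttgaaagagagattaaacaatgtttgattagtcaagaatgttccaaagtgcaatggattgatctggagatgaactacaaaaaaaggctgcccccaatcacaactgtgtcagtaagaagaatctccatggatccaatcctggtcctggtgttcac
Cyp2c39 chr19:39510572-39510871 plus strand: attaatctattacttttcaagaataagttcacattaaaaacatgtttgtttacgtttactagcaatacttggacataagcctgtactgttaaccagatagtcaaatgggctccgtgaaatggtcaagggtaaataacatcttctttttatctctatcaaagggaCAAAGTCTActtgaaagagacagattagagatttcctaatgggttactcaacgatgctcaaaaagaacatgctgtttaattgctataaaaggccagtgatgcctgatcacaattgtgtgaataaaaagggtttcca
Cyp2c55 chr19:39006769-39007068 plus strand: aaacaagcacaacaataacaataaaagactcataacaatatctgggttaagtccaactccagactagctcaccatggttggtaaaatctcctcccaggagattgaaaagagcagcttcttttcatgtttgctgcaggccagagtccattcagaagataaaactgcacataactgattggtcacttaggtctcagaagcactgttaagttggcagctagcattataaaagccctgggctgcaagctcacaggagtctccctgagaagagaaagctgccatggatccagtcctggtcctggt

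The Cyp2c37 and Cyp2c50 promoters were identical at 264 of 300 bases (88.0%) in an alignment that allowed gaps. CAAAGTCNA, searched on both strands, was found in 6 of the 9 entries (Cyp2c29, both Cyp2c39 entries, Cyp2c40, Cyp2c37 and Cyp2c70), and in 342 of 32851 promoters of the same length (1.0%). AGGTCA, on both strands, was found in 3 (Cyp2c29, the other Cyp2c39 entry and Cyp2c70), and in 5340 of all promoters (16.3%). No match of 1 motif overlapped a match of the other in these entries. The letters of CAAAGTCNA were taken from these sequences and the entries share ancestry, so the count of 6 cannot be read against the share over all promoters. A match describes letters, not binding.

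The transcripts most like the leading members over the 8 arrays were sought among 18313 probes, by Pearson correlation and as a description. For Cyp2c54 they were Cpsf4l (0.992), Susd4 (0.991) and Akr1d1 (0.986). For Cyp2c37 (A_52_P625249) they were Susd4 (0.994), Krtap5-1 (0.993) and Dio1 (0.990), and for Cyp2c39 they were Dio1 (0.994), Akr1d1 (0.989) and Tlcd2 (0.989). Akr1d1 encodes a steroid reductase of bile acid synthesis and Dio1 the deiodinase that activates thyroid hormone.

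The nuclear receptors and other factors that act on Cyp2c genes were read as a list of 24, of which all were measured. Nr1i3, which encodes CAR, had levels of 1.23 and 1.96 in VAD_VAD, 2.26 and 2.79 in LF_HF and 3.03 and 3.18 in BD_HF livers, against -0.25 and 0.05 in LF_LF livers. Its arrays did not overlap between any of the 4 groups, and they stood in the order of Cyp2c37. Nr1i3 was higher in LF_HF (log2 difference 2.63, adjusted p = 0.0280) and BD_HF livers (3.20, adjusted p = 0.0192), and the difference of 1.70 in VAD_VAD livers did not pass (adjusted p = 0.171). Nr0b2, which encodes the repressor SHP, had levels of -0.61 and -0.84 in VAD_VAD, 1.28 and 1.67 in LF_HF and -0.20 and 0.21 in BD_HF livers, against -1.11 and -0.97 in LF_LF livers. It was higher in LF_HF livers (2.51, adjusted p = 0.0202), without overlap with any other group. These 2 were the only factors of the list called in LF_HF livers, Nr1i3 alone was called in BD_HF livers, and no factor was called in VAD_VAD livers. The list's median difference from LF_LF was 0.45 in VAD_VAD, 0.30 in LF_HF and 0.62 in BD_HF livers.

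**Figure D4:**
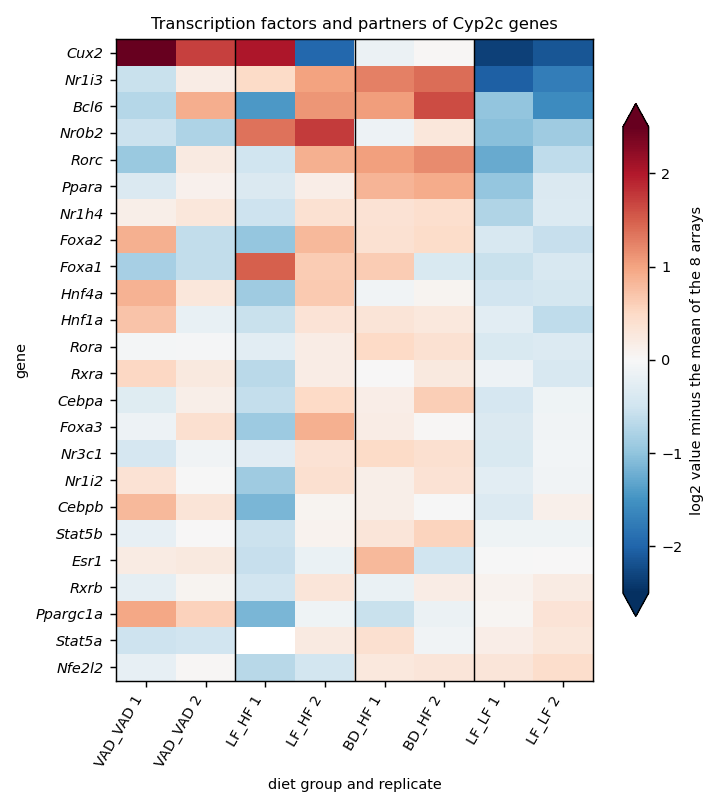
Levels of the 24 regulators of Cyp2c genes on the 8 arrays (rows are genes, columns are arrays by diet group; colour is the log2 level minus the mean of the gene over the 8 arrays, colours stop at the ends of the scale, and Stat5a has no value on LF_HF replicate 1). Nr1i3 is above its mean on the 4 high-fat arrays and below it on both LF_LF arrays.

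Other targets of CAR and PXR, which carry out drug oxidation, conjugation and transport, were read as a list. Of the 22 measured of 23, 1 was called in LF_HF against LF_LF, Ugt1a9, a glucuronosyltransferase, at -2.38 (adjusted p = 0.0360; 0.0503 with the slide as a block), and 0 were called in VAD_VAD or BD_HF livers. The list's median differences were 0.07 in VAD_VAD, -1.07 in LF_HF and -0.07 in BD_HF livers. In LF_HF livers the P450 gene Cyp2b9 was at -3.52 (adjusted p = 0.206). There Cyp3a11, Cyp3a16, Cyp3a41a and Cyp3a44, near-identical genes of the PXR-regulated Cyp3a family, were at -2.40 to -2.25 (adjusted p 0.0733 to 0.0779). The carboxylesterase Ces2a was at 2.30 in VAD_VAD (adjusted p = 0.0997) and 2.08 in BD_HF livers (adjusted p = 0.0905), and the transporter Slco1a4 was at 2.40 in VAD_VAD livers (adjusted p = 0.145). All 5 measured electron partners of P450 enzymes had positive differences in each comparison and none passed. Of the other family members outside the 10, Cyp2c65 and Cyp2c66 were measured and neither passed.

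Genes of retinoic acid handling were read beside the vitamin A deficient diet. Of 10 measured of 11, 2 were lower in VAD_VAD livers, 1 in LF_HF and 1 in BD_HF livers, and 0 were higher; with the slide as a block 1, 0 and 0 passed. Cyp26b1, which clears retinoic acid, was at -7.67 (adjusted p = 0.0339), and Lrat, which esterifies retinol, at -5.81 (adjusted p = 0.0270; 0.0552 with the slide as a block), each above background on 1 of the 2 VAD_VAD arrays. Lrat was not the gene called in LF_HF (-0.90, adjusted p = 0.544) or BD_HF livers (0.03, adjusted p = 0.993). Lrat is also a stellate cell marker, and the median of those markers was below 0 in all 3 groups. Cyp26a1, a second retinoic acid hydroxylase, was not well above background on either VAD_VAD array and at least 59.2-fold lower there, with an adjusted p of 0.0852.

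Other groups of liver genes were read beside the family. Among 15 genes of bile acid handling, 3 were higher in LF_HF livers, namely the transporter Slco1a1 (3.43, adjusted p = 0.0173), Nr0b2 and Akr1d1 (1.86, adjusted p = 0.0424; 0.0599 with the slide as a block). Slco1a1 (3.51) and Akr1d1 (2.23) were also higher in BD_HF livers. Of 18 measured male-biased liver genes, 1 was higher in VAD_VAD livers (Susd4, 3.43, adjusted p = 0.0331), 5 in LF_HF livers and 4 in BD_HF livers (3 with the slide as a block). Among them the steroid dehydrogenase Hsd3b5 was at 8.27 in LF_HF (adjusted p = 0.0145) and 7.93 in BD_HF livers (adjusted p = 0.0179). Of 16 other measured Cyp1 and Cyp2 genes none passed, and Cyp2e1, an ethanol-inducible P450, was at 1.83, 2.15 and 2.59 in VAD_VAD, LF_HF and BD_HF livers (adjusted p 0.214, 0.0720 and 0.0547). Among 17 measured genes of epoxide and eicosanoid handling, Cyp4a14, a fatty acid hydroxylase, was lower in LF_HF livers (-5.04, adjusted p = 0.0309, and 0.0506 with the slide as a block).

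The arrays read whole liver, so fewer cells of a type and less RNA per cell cannot be told apart, and lists of cell type markers were read beside the family. Of 16 measured hepatocyte markers, 0 passed in any comparison in limma, and 16 in VAD_VAD, 12 in LF_HF and 14 in BD_HF livers were above LF_LF, with medians of 0.66, 0.13 and 0.41. Their summed level, in multiples of the 75th percentile of the array, ran from 7918 to 9705 in VAD_VAD, 4171 to 9802 in LF_HF and 6510 to 7226 in BD_HF livers, against 5896 to 6161 in LF_LF livers. Stellate cell and fibroblast markers ran the other way, with 5 of 13 called lower in VAD_VAD, 4 in LF_HF and 4 in BD_HF livers, among them the collagen gene Col1a1 (-3.81 in VAD_VAD and -4.67 in LF_HF livers). With the slide as a block 2, 4 and 3 of the 13 passed. Their summed level was 119 to 159 in VAD_VAD, 75.2 on both arrays of LF_HF and 107 to 140 in BD_HF livers, against 209 to 236 in LF_LF livers.

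Macrophage markers summed to 98.7 to 146.7 in VAD_VAD, 75.2 to 84.0 in LF_HF and 105.3 to 122.9 in BD_HF livers, against 198.1 to 212.6 in LF_LF livers, and 1, 2 and 1 of 16 were called lower. Trem2, a receptor of lipid-associated macrophages, was among them in all 3 comparisons, at -2.77, -3.71 and -3.36, while Cd163, a marker of resident macrophages, was called higher in BD_HF livers (2.95, adjusted p = 0.0448). Cd163 was also above LF_LF in VAD_VAD (3.11, adjusted p = 0.0590) and LF_HF livers (2.49, adjusted p = 0.0562). Timd4 was at 1.74, 1.15 and 1.93, without a call. Of the 16 markers, 4 in VAD_VAD, 5 in LF_HF and 6 in BD_HF livers were above LF_LF. With the slide as a block the calls of Trem2 in VAD_VAD (adjusted p = 0.0585) and Cd163 (adjusted p = 0.0678) were lost. Cholangiocyte markers summed to 6.96 to 7.77 in VAD_VAD, 7.81 to 8.67 in LF_HF and 11.8 to 12.5 in BD_HF livers, against 20.1 to 29.0 in LF_LF livers, with none of 9 called. LF_LF livers, where Cyp2c37, Cyp2c39 and Cyp2c54 were lowest, thus had the highest summed levels of these 3 non-hepatocyte lists. The sums weigh bright markers most, with LF_LF mean levels of 7.13 for Dcn, 6.57 for Lyz2 and 3.84 for Spp1. Other lists were not highest there. In VAD_VAD against LF_LF livers, endothelial markers summed to 61.5 to 71.7 against 43.3 to 44.96, and neutrophil markers to 19.99 to 26.3 against 4.71 to 4.9. Erythroid markers summed to 457.3 to 812.6 against 181.4 to 187.5. The part of these lists in the differences of the Cyp2c probes was not tested.

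**Figure D5:**
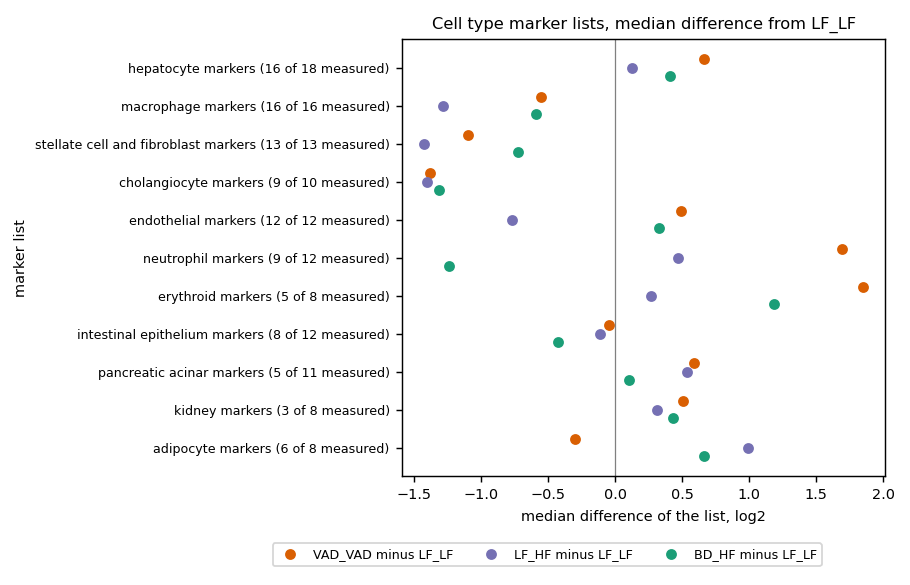
Median log2 difference from LF_LF (horizontal axis) of each cell type marker list (rows, with the number of markers measured) in VAD_VAD, LF_HF and BD_HF livers. The macrophage, stellate cell and cholangiocyte lists lie below 0 in all 3 groups, and the hepatocyte list lies above 0 in all 3.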

How the data were processed

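Liver total RNA was labelled with Cy3 and hybridised to single-colour Agilent arrays of design 014868, per the labels' protocols and the file headers. The image reader was Feature Extraction (10.7.3.1). The deposited array files hold processed signal as a linear intensity after background handling and detrending, per the file headers. The deposited series table holds the same intensity rounded, not log2 and not centred (largest relative difference 0.497%). The submitters' processing notes name limma; its version and role are not given in the sources used here.

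From these intensities, outlier-marked spots were left out, log2 values were taken, each array was centred on its 75th percentile, and spots of a probe were averaged, giving 41174 gene probes from 43379 gene spots. The 26224 probes tested were well above background on each of the 2 arrays of some group. All 8 arrays were fitted with limma 3.58.1 in R 4.3.3 (lmFit, then eBayes; 4 residual degrees of freedom, with 3.26 from the prior), with Benjamini-Hochberg adjustment over all tested probes. Where a member has 2 probes both are given. Only 2 arrays per group limit the precision. The code was tested on simulated data.

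Replicate 1 of every group lay on 1 slide and replicate 2 on the other, per the file headers, so the replicate number marks a shared slide and the block on it is the slide block. Deviations of same-numbered arrays correlated at 0.067 to 0.254 over the 6 pairs of groups. Genes named beside the 10 members are those called in the lists, the uncalled with the largest differences, and the 3 probes most correlated with each leading member. The members and lists were chosen with earlier results of these data known. Probe positions are in mm9, per the file headers; promoters and symbols come from RefSeq tables of GRCm38.p6, used for names and sequences.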

Additional observations from a re-analysis of the deposited data

How the results depend on the processing

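The count of Cyp2c probes called was recomputed under 10 alternatives that kept all arrays and with each array left out in turn. In VAD_VAD against LF_LF it was 2 in the main fit, beside 0.347% of all tested probes. It was 5 with normexp background and 75th percentile scaling (beside 1.4%) and 4 with normexp and quantile scaling (1.41%). It was 0 with no filter on dim probes (0%), 4 with a filter on detection on all arrays (0.732%) and 5 with trended and robust variances (1.07%). With no filter it was also 0 in LF_HF against LF_LF, in BD_HF against LF_LF and over all 4 groups; the cause was not tested. With 1 array left out the counts were 0 to 8 in LF_HF against LF_LF, 0 to 1 in BD_HF against LF_HF, 0 to 7 in BD_HF against LF_LF and 0 to 9 over all 4 groups. With the replicate block, which is the slide, the counts were 2 in VAD_VAD against LF_LF, 4 in LF_HF against LF_LF, 0 in BD_HF against LF_HF, 4 in BD_HF against LF_LF and 3 over all 4 groups. The block ended the calls of Cyp2c55 in LF_HF livers and of Cyp2c39 over all 4 groups (adjusted p = 0.0682). Over all tested probes it gave 53, 248, 0 and 168 calls in the 4 comparisons, against 91, 404, 1 and 238 without it. Over all 4 groups it gave 85 calls, against 158 without it. The split of all calls moved with the scaling and the background correction: against 15 higher and 76 lower in VAD_VAD, 107 and 297 in LF_HF and 69 and 169 in BD_HF livers relative to LF_LF, it was 6 and 12, 64 and 74, and 50 and 94 when the percentile was taken over probes detected on all arrays, and 106 and 261, 2812 and 1211, and 312 and 466 with normexp and the unchanged percentile. All-probe counts over the alternatives that kept all arrays were 0 to 370, 0 to 4023, 0 to 1 and 0 to 879, and 0 to 1197, 0 to 6606, 0 to 5226 and 0 to 1994 with 1 array left out. The Cyp2c38 probe A_52_P468564 reversed in LF_HF against LF_LF without LF_HF replicate 1 (-1.69, with a range of -1.69 to 2.17 over the arrays left out) and in BD_HF against LF_HF without LF_HF replicate 2 (-1.30, with a range of -1.30 to 2.57); its lower LF_HF array was not above background. Over all 4 groups the alternatives that kept all arrays gave 0 to 825 calls over all tested probes, against 158 in the main fit. The highest family count over all 4 groups came when 1 LF_HF array was left out. Calls over all tested probes rose well above the main fit there too, so that count is not particular to the family. Where 1 array of a group was left out, the remaining array was assumed to vary like the other groups.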

Other observations

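Lists of sex-biased and zonal liver genes held further values beside the family. Of 14 measured genes on the list taken as female-biased, the sulfotransferase Sult2a8 was higher in LF_HF than in LF_LF livers (log2 difference 2.84, adjusted p = 0.0424 in limma), and 0 passed in VAD_VAD or BD_HF livers. All livers were male, so the sex bias of Sult2a8 could not be tested here. Of 15 measured pericentral genes, the ammonium transporter Rhbg was lower in VAD_VAD livers (-2.84, adjusted p = 0.0331), and the list's medians were 0.37 in VAD_VAD, 0.96 in LF_HF and 1.44 in BD_HF livers. The 15 measured periportal genes had medians of 0.58, 0.00 and 0.05, with none called.

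Other marker lists differed between the livers with few calls. Adipocyte markers summed to 125.9 to 139.9 times the 75th percentile of the array in VAD_VAD and 353.5 to 662.7 in LF_HF livers. They summed to 532.4 to 659.4 in BD_HF and 242.1 to 263.6 in LF_LF livers, and none of 6 passed. Most of each sum came from Car3, with mean levels of 6.98 in VAD_VAD, 8.91 in LF_HF, 9.18 in BD_HF and 7.92 in LF_LF livers. Of the 6, 3 in VAD_VAD, 5 in LF_HF and 5 in BD_HF livers were above LF_LF. Fabp4 was the marker below LF_LF in LF_HF livers, at -2.71, a value that rested on LF_HF replicate 2 alone. Neutrophil markers summed to 19.99 to 26.3 in VAD_VAD, 6.01 to 6.44 in LF_HF and 1.89 to 2.38 in BD_HF livers, against 4.71 to 4.90 in LF_LF livers, and none of 9 passed. Endothelial markers summed to 61.5 to 71.7 in VAD_VAD, 19.99 to 33.1 in LF_HF and 59.8 to 74.3 in BD_HF livers, against 43.3 to 44.96 in LF_LF livers, and none of 12 passed. The intestinal list had Tff3, a trefoil peptide, lower in LF_HF (-1.90, adjusted p = 0.0411; 0.0629 with the slide as a block) and BD_HF livers (-2.43, adjusted p = 0.0262). The pancreatic acinar list had the elastase Cela2a higher in LF_HF livers (2.27, adjusted p = 0.0424; 0.0668 with the slide as a block). Their part in the values of the Cyp2c probes was not tested.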
